A study of Mus musculus with 2 samples.

Results

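The 10 genes described here encode checkpoint and costimulatory receptors of T cells: *Pdcd1*, *Ctla4*, *Lag3*, *Tigit*, *Havcr2*, *Cd160*, *Btla*, *Cd28*, *Icos* and *Cd226*. They were taken from 20887 genes named on the arrays. The genes were chosen with the difference between the 2 arrays in view, so the levels and differences below describe these genes and were not tested. The comparison asks how the RNA of these receptors differed between TCRαβ+CD8αα+ intraepithelial lymphocytes (IELs) of the Control and RFF4 genotypes, the second made to delete *Rbpj* in T cells. *Rbpj* encodes the DNA-binding protein through which Notch receptors change transcription. The Control group carried floxed *Rbpj* alleles and is labelled Rbpj f/f, with no Cre named. The study's text instead describes its controls as Rbpj+/+ mice that carry CD4-Cre as well, so whether the Control pool carried the Cre is not settled by the sources used here. The RFF4 group carried the same floxed alleles with CD4-Cre (CD4-Cre Rbpj f/f). The *Cd4* promoter of that transgene acts in developing T cells, so that other T cells of these mice can carry the deletion too. Both groups were C57BL/6 mice aged 8 to 12 weeks, with males and females pooled. IELs of the small intestine were depleted of CD4+ and TCRγδ+ cells and sorted as TCRβ+ and CD8α+ cells that lack TCRγδ, CD4 and CD8β. RNA from several isolations was pooled, and each genotype was hybridized to 1 Agilent array of 1 color. No standard deviation between animals, test or p-value can therefore be given for any difference.

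T cells act on an antigen receptor signal together with signals from coreceptors. CD28, ICOS and CD226 (DNAM-1) add to activation, whereas PD-1 (the product of *Pdcd1*), CTLA-4, LAG-3, TIGIT, TIM-3 (*Havcr2*) and BTLA limit it, and CD160 has been given both roles. Several receptors share ligands: CD28 and CTLA-4 bind CD80 and CD86, CD226 and TIGIT bind nectin-family proteins, and BTLA and CD160 bind HVEM. TCRαβ+CD8αα+ IELs reside in the gut epithelium and arise from self-reactive thymocytes, among which PD-1 marks a precursor population.

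Promoter windows of RefSeq (assembly GRCm38.p6), each running from 250 bases before to 50 bases after a transcript start, were used for 6 of the 10 genes in 7 windows, of *Pdcd1*, *Ctla4*, *Cd160* (2 windows), *Havcr2*, *Tigit* and *Btla*. They were searched on both strands for the letters GTGGGAA, the core that RBPJ binds, and for GGAAA, the core that NFAT factors bind in activated T cells. The windows of *Pdcd1* and *Ctla4* are printed because these genes had the highest and the lowest difference, and the second *Cd160* window because it is the only one of the 7 with the RBPJ letters. They lie at chr1:94052504-94052803 on the minus strand (*Pdcd1*), chr1:60908775-60909074 on the plus strand (*Ctla4*) and chr3:96814472-96814771 on the minus strand (*Cd160*). Capitals mark GGAAA, or TTTCC where it is on the other strand, in *Pdcd1* and *Ctla4*, and GTGGGAA in *Cd160*.
Pdcd1: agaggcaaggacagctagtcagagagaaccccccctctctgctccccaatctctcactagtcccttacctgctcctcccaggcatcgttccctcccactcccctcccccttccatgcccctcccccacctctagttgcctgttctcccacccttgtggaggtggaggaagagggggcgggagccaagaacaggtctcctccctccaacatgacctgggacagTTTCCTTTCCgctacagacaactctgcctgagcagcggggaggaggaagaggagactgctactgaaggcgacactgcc
Ctla4: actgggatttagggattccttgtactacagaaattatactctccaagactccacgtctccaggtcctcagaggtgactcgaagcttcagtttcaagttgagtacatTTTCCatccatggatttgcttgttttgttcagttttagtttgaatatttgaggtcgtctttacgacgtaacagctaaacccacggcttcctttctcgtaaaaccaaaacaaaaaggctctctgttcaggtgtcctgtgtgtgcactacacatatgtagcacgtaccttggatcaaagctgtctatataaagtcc
Cd160: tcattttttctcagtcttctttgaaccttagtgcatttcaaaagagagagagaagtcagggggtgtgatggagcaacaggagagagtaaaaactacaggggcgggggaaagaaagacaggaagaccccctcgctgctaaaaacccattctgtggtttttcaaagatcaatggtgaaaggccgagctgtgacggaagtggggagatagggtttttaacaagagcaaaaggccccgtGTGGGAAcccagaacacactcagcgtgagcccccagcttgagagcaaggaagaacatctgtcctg
The *Pdcd1* window holds 2 GGAAA matches side by side on the opposite strand, from −28 to −24 and from −23 to −19 relative to the transcript start. The *Ctla4* window holds 1, from −144 to −140. Of the 7 windows, 4 hold GGAAA, as do 61.3% of 32851 promoter windows of the same length. GTGGGAA lies from −15 to −9 in the second *Cd160* window and overlaps no GGAAA match. It is in 6.38% of all promoter windows. The letters TGTGGT, which RUNX factors bind, are in 5 of the 7 windows, both of *Cd160* and those of *Havcr2*, *Tigit* and *Btla*, and in 16.8% of all windows. The AP-1 letters TGANTCA are in the *Havcr2* window, from −200 to −194, and in 7.81% of all windows. These matches are letters only, and no binding was measured.

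Each array holds 59305 spots of gene probes, of which 57.2% were well above background on the Control array and 49.7% on the RFF4 array, with none saturated (0 on each). The median signal over background of those spots was 9.47 on the Control array and 5.78 on the RFF4 array. Levels are given as log2 signal relative to the array's 75th percentile, which lay 1.17 log2 units lower on the RFF4 array. Differences are RFF4 minus Control. A gene is counted as higher or lower if it differed by more than 2-fold. The technical SD of a log2 difference was 0.16, from probes spotted repeatedly. The software error printed with each difference is the scanner software's estimate for that probe. Both errors leave out the spread between mice. With 75th percentile scaling, the targeted gene *Rbpj* was not lower on the RFF4 array. Its brighter probe was at 1.96 on the Control array and 2.28 on the RFF4 array, a difference of 0.32. Its other probe differed by 0.82. Before scaling both probes were dimmer on the RFF4 array, with log2 ratios of −0.85 and −0.35, so the direction depends on the scaling. Whether either *Rbpj* probe falls in a floxed exon is not given in the files, so these values do not check the deletion.

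All 10 receptors were well above background on both arrays, through 11 probes, 2 of them for *Icos*. Of the 10, 3 were more than 2-fold higher on the RFF4 array (*Pdcd1*, *Cd226* and *Cd28*), beside 12.3% of 13513 genes with a difference, and 1 was more than 2-fold lower (*Ctla4*), beside 5.05%. The other 6 differed by less. At more than 4-fold, 1 receptor (*Pdcd1*) was higher, beside 1.85% of genes, and 0 were lower, beside 0.585%. Since the genes were chosen on this contrast, nothing is read from these shares. The differences ran from −1.01 to 2.52, with 5 receptors below 0 and 5 above. Their median was 0.17, and that of all genes was −0.015. *Ctla4* lay just past 2-fold, at 2.02-fold, and *Btla*, at 1.48-fold, was the nearest of those within it. *Cd226*, at 3.99-fold, lay just under 4-fold.

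**Figure D1:**
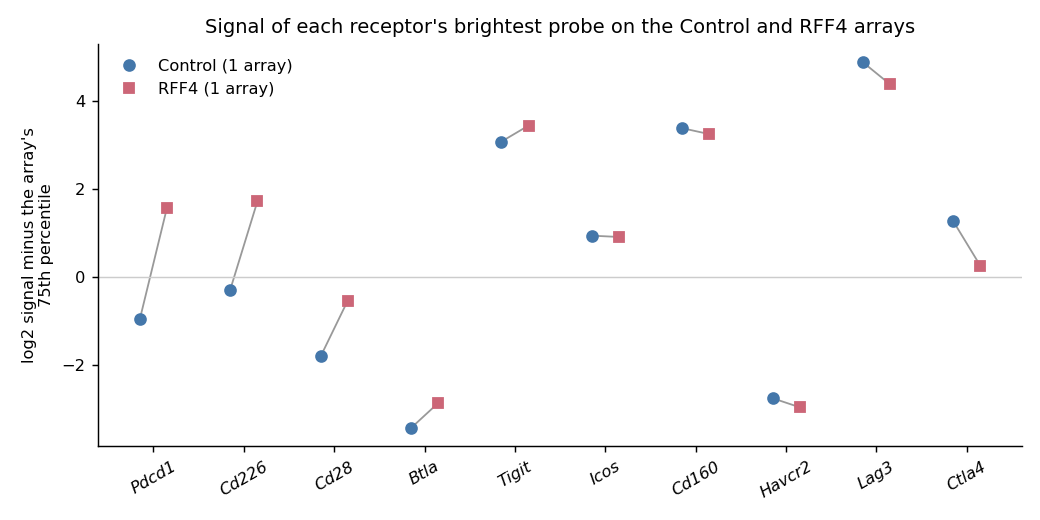
Level of each receptor on the Control array (circle) and the RFF4 array (square), as log2 signal of its brightest probe minus the array's 75th percentile, with genes in the order of their difference. Each point is 1 array of pooled RNA, so there is no error bar. *Pdcd1* and *Cd226* cross from below the 75th percentile (0) on the Control array to above it on the RFF4 array, and the levels of different genes come from different probes and are not comparable.

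Among the receptors that limit activation, *Pdcd1* had the highest difference. Its probe had a background-subtracted signal of 264 on the Control array and 674 on the RFF4 array, so it was brighter there before any scaling although the array as a whole was dimmer. Relative to the 75th percentile its level was −0.95 on the Control array and 1.57 on the RFF4 array, a difference of 2.52 (5.74-fold, software error 0.20). This placed it at rank 84 of 13513 genes by rise, with 0.614% of genes above it.

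*Ctla4*, whose product competes with CD28 for the same ligands, differed the other way. Its signal was 1224 on the Control array and 270 on the RFF4 array, and its level was 1.26 and 0.25, a difference of −1.01 (software error 0.20). It ranked 663 by fall, with 95.1% of genes above it. *Pdcd1* and *Ctla4* thus parted by 3.53 log2 units, or 11.6-fold (combined software error 0.29), a distance that no scaling by 1 factor per array can alter.

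*Lag3*, which encodes a CD4-like receptor for MHC class II, had a level of 4.87 on the Control array and 4.37 on the RFF4 array, a difference of −0.50 (software error 0.20). *Pdcd1* and *Lag3* lay 3.02 log2 units apart in their differences. Its signal before scaling was 14865 on the Control array and 4673 on the RFF4 array, far above background on both. *Tigit* was at 3.07 and 3.43, a difference of 0.36 (software error 0.20). Neither gene reached 2-fold.

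*Cd160*, a receptor that IELs are known to carry, was at 3.37 on the Control array and 3.24 on the RFF4 array, a difference of −0.14 (software error 0.20), which is within the technical SD of 0.16. *Havcr2* and *Btla* were close to background. The *Havcr2* signal was 76.1 and 29.3, which is 2.54 and 0.733 times the local background, and its level of −2.74 and −2.95 gave a difference of −0.20 (software error 0.25). The *Btla* signal was 47.6 and 31.3, or 1.83 and 0.896 times background, and its level of −3.42 and −2.85 gave a difference of 0.57 (software error 0.25). Both genes were called well above background on both arrays. On the RFF4 array, however, their background-subtracted signals were smaller than the local background itself. *Cd160* and *Btla*, which share HVEM as a ligand, lay 0.70 apart, more than their combined software error of 0.33.

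Of the 3 costimulatory receptors, *Cd226* and *Cd28* were more than 2-fold higher on the RFF4 array and *Icos* was not. *Cd226* had signals of 419 on the Control array and 743 on the RFF4 array. Its level went from −0.28 to 1.71, a difference of 1.997 (3.99-fold, software error 0.20), and 1.85% of genes had a larger rise. *Cd226* and *Tigit*, an activating and an inhibitory receptor for the same ligands, differed by 1.63 log2 units, or 3.10-fold (combined software error 0.29).

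*Cd28*, the main costimulatory receptor of naive T cells, had signals of 147 on the Control array and 157 on the RFF4 array. These signals were nearly equal before scaling (log2 ratio 0.095), so that its higher level on the RFF4 array, −0.53 against −1.80, comes with the scaling. The difference was 1.26 (2.40-fold, software error 0.21), and 8.53% of genes had a larger rise. *Icos*, an inducible receptor of the same family, had signals of 977 and 425 and levels of 0.94 and 0.91, a difference of −0.03 (software error 0.20). Its other probe was at −0.997 and −0.803, a difference of 0.19, so neither *Icos* probe moved far beyond the technical SD.

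*Cd28*, *Ctla4* and *Icos* are neighbors in that order on GRCm38.p6, yet they parted. *Cd28* and *Ctla4* lay 2.28 log2 units apart (4.84-fold, combined software error 0.29), *Cd28* and *Icos* 1.29, and *Icos* and *Ctla4* 0.98. *Raph1*, the gene before *Cd28*, was also higher on the RFF4 array, at 1.32, and *Pard3b*, after *Icos*, was not well above background on either array. Next to the other receptors, *Fam174a* beside *Pdcd1* differed by −0.29, *Rttn* beside *Cd226* by −0.76, *Cd200* beside *Btla* by 0.18 and *Cd4* beside *Lag3* by 0.13. Apart from *Raph1* and the cluster itself, no measured neighbor reached 2-fold.

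Grouped by role, the 7 inhibitory receptors (with *Cd160* counted here) had a median difference of −0.14, with 1 higher and 1 lower. The 3 costimulatory receptors had a median of 1.26, with 2 higher and 0 lower. Within the CD28 family, the 5 members *Pdcd1*, *Cd28*, *Btla*, *Icos* and *Ctla4* covered the whole range from 2.52 to −1.01. In the order of the differences, *Pdcd1*, *Cd226*, *Cd28* and *Btla* followed each other at gaps larger than the combined software error, as did *Tigit* before *Icos* and *Lag3* before *Ctla4*. The other 4 of the 9 gaps, *Btla* to *Tigit*, *Icos* to *Cd160*, *Cd160* to *Havcr2* and *Havcr2* to *Lag3*, were within that error, so their order is not resolved.

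**Figure D2:**
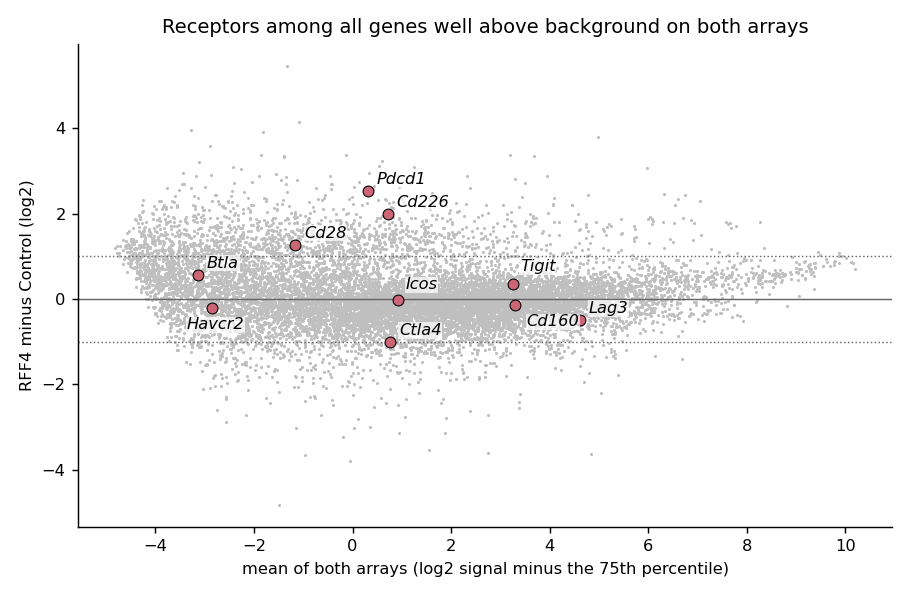
Difference of each gene (RFF4 minus Control, log2) against its mean level on both arrays, for the 12955 genes well above background on both (grey points), with the 10 receptors in red and dotted lines at 2-fold. *Pdcd1*, *Cd226* and *Cd28* lie above the upper line, *Ctla4* lies on the lower line, and *Btla* and *Havcr2* lie at the dim end, where the genes spread more widely.

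The scaling decides where 0 lies for all receptors alike. Before scaling, 7 of the 10 receptors had a lower signal on the RFF4 array and 3 a higher one, *Pdcd1*, *Cd226* and *Cd28*, with a median log2 ratio of −1.003. With the 8 measurable spike-in controls of 10 set equal in place of the 75th percentiles, every gene moved by −1.12. *Pdcd1* was then 1.40, *Cd226* 0.88 and *Cd28* 0.14, *Tigit* and *Btla* were below 0 at −0.76 and −0.56, and *Ctla4* was −2.13. In the 9 alternatives other than the spike-in scaling, *Pdcd1* ranged from 2.18 to 2.65, *Cd226* from 1.69 to 2.12 and *Cd28* from 1.06 to 1.36, all above 2-fold. *Ctla4* ranged from −1.19 to −0.89 and was under 2-fold with quantile normalization, cyclic loess and normexp background correction. *Havcr2* changed sign with normexp, to 0.36, and *Icos* ranged from −0.20 to 0.09.

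**Figure D3:**
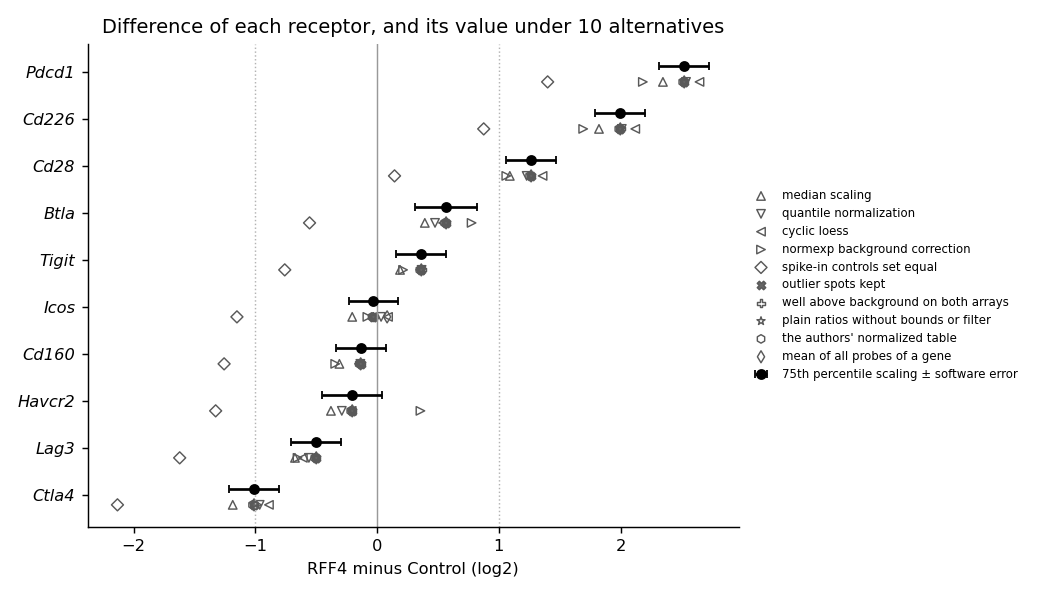
Difference of each receptor (RFF4 minus Control, log2) with 75th percentile scaling (black points, with the scanner software's error as bars) and under 10 alternatives (open and grey symbols), with dotted lines at 2-fold. *Pdcd1* is above the upper line in every setting shown, *Cd226* and *Cd28* in all but the spike-in scaling (diamonds), and the spike-in scaling shifts all 10 receptors to the left by the same amount.

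The ligands of these receptors are mostly made by other cells, and some are carried by T cells too. Of 13 listed, 12 have a named probe and 11 a difference, of which 1 was lower, 2 were higher and 8 were within 2-fold, with a median of −0.08. *Cd274*, which encodes the PD-1 ligand PD-L1, was lower by 1.25 log2 units (2.41 on the Control array, 1.16 on the RFF4 array), opposite to its receptor. *Pdcd1lg2*, for the other PD-1 ligand, differed by −0.19. *Nectin2* (1.29) and *Nectin3* (1.43), for proteins of the family that CD226 and TIGIT bind, were higher, and *Pvr*, for a shared ligand of both, was at −0.08. *Cd80*, *Cd86* and *Icosl*, for the ligands of CD28, CTLA-4 and ICOS, were at 0.43, −0.43 and −0.58, and *Tnfrsf14*, for HVEM, was at 0.03. The other probes of *Cd80* and *Tnfrsf14* were at 0.93 and 0.46.

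None of the 14 genes for signaling proteins below the receptors reached 2-fold (0 higher and 0 lower). Of the 14, 12 lay below 0, beside 6906 of all 13513 genes with a difference, and their median was −0.31. *Fyn*, for a kinase near the antigen receptor, was at −0.93, and *Pik3r1*, for the PI3-kinase subunit that CD28 and ICOS recruit, was at −0.80. The phosphatases that inhibitory receptors recruit went opposite ways, with *Ptpn11* (SHP-2) at −0.65 and *Ptpn6* (SHP-1) at 0.40. *Lrba*, whose product keeps CTLA-4 from degradation, was at −0.14, with its other probes from −0.67 to 0.21. *Rc3h1*, for Roquin, which represses *Icos* RNA, was at −0.52.

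Among 14 measured genes of 15 other coreceptors, 1 was lower and 2 were higher, with a median of −0.05. *Cd2*, for an adhesion and costimulatory receptor, differed by 2.22 and by 2.35 at its other probe. *Klrg1*, for an inhibitory receptor of effector cells, differed by 1.41. *Tnfrsf4*, for the costimulatory receptor OX40, was lower by 1.21 (1.12 and −0.09). *Cd27*, of the same receptor family, lay just within 2-fold at −0.99, with its other probe at −1.15. *Cd96* and *Crtam*, whose products also bind nectin-family proteins, were at 0.26 and 0.34, so the higher values of *Cd226*, *Nectin2* and *Nectin3* were not shared by every gene of that group.

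Of 17 transcription factors known to act on these receptors or in their setting, 2 were higher and 0 lower, with a median of 0.20. *Irf4*, which acts below the antigen receptor, differed by 1.43, and *Tox2* by 1.01, at a dim signal of −4.31 on the Control array. *Tox*, for a factor tied to sustained PD-1, differed by −0.39. *Nfatc1* and *Nfatc2*, for factors that bind the *Pdcd1* locus in activated T cells, were at −0.69 and −0.34. Their other probes were at −0.96 and 0.27, so the probes of *Nfatc2* differed in sign. *Prdm1*, for a repressor of *Pdcd1* after acute activation, was at −0.71, and *Nr4a1*, induced by antigen receptor signaling, was at 0.20.

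The sorted phenotype was checked against markers. Of 9 measured IEL markers, 8 were within 2-fold, with *Cd3e* at 0.35 and *Cd8a* at −0.07, and *Gzma* was higher at 1.02. *Cd8b1*, whose product was gated out, was dim on the Control array and not well above background on the RFF4 array. Genes used as markers of other cells were higher together with *Pdcd1*, *Cd226* and *Cd28*. Of 8 markers of CD4 and regulatory T cells, which can carry PD-1, ICOS and CD28, 4 were higher: *Il21* (2.36), *Il2* (1.81), *Cxcr5* (at least 1.40) and *Foxp3* (1.20). *Cd4* was at 0.13, *Il2ra* at −0.87, and *Cd40lg* was not well above background on either array. *Zbtb7b* was at 0.50, with its other probes at −0.39 and −0.37, so its probes differed in sign. The summed signal of these markers, in units of the array's 75th percentile, was 22.9 on the Control array and 31.7 on the RFF4 array. The brightest *Zbtb7b* probe alone made up 19.4 and 27.5 of it. The 4 higher markers summed to 0.168 and 0.618.

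All 6 markers of naive or circulating T cells, which carry CD28, lay above 0, and 4 were more than 2-fold higher, among them *Thy1* (3.80), *Il7r* (1.91) and *Ccr7* (1.39). The product of *Thy1* is CD90, which TCRαβ+CD8αα+ IELs can carry themselves, so it does not mark other cells alone. CD90 was also measured on these IELs in the study. The summed signal of the list was 9.57 on the Control array and 121 on the RFF4 array, nearly all of it *Thy1* (8.51 and 119), and the other 5 markers summed to 1.05 and 2.43. Of 14 markers of macrophages and dendritic cells with a difference, 12 were higher, 2 of them as bounds (*C1qa* and *C1qc*, not well above background on the Control array), with a median of 1.90 and summed signals of 76.4 and 170 (45.9 and 52.9 from *Itgax*). Of 13 epithelial markers, 11 were higher, with a median of 1.59 and summed signals of 234 and 710. Of 9 markers of B and plasma cells, 4 were higher, with a median of 1.37 over the 6 that had a difference and summed signals of 27.5 and 61.2 (14.9 and 47.8 from *Jchain*), and *Cd79a* and *Pax5* were not well above background on either array. Among the markers of NK cells and innate lymphoid cells, *Klrb1c* was lower by 1.89 and *Ncr1* was not well above background. Of 3 γδ T cell markers with a named probe, *Sox13* was at 0.78, and *Cd163l1* and *Blk* were not well above background on either array. The part of these cells in the values of *Pdcd1*, *Cd226* and *Cd28* was not tested, and in RNA of sorted populations more (or fewer) cells of a type and more (or less) RNA per cell cannot be told apart.

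**Figure D4:**
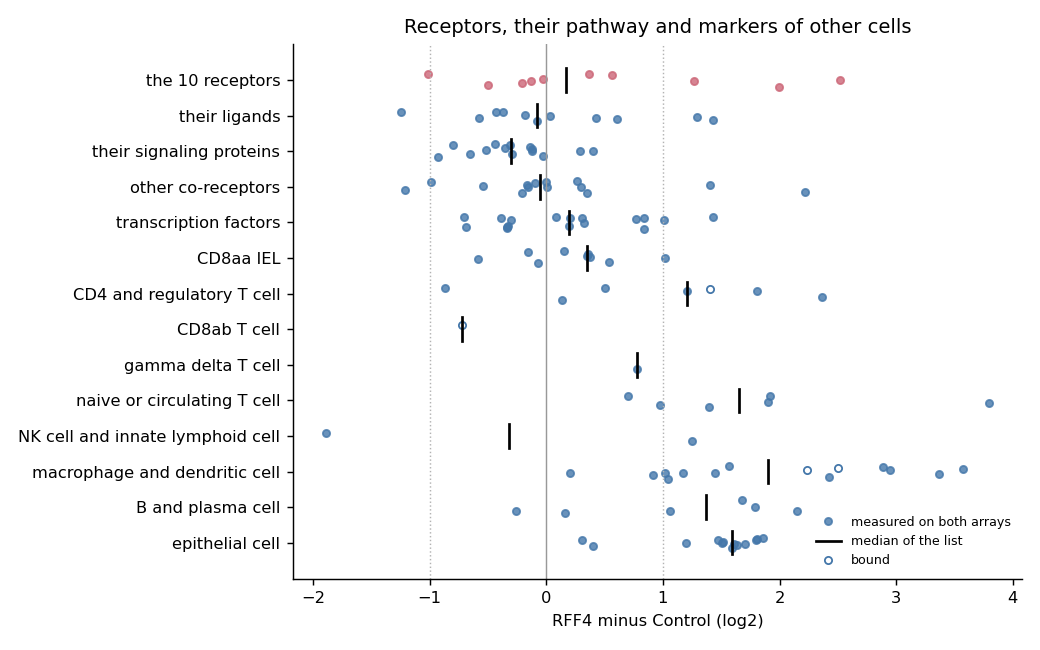
Difference (RFF4 minus Control, log2) of the 10 receptors (red), of the lists of related genes and of the marker lists of other cells (blue), with open circles for bounds, black lines at the median of each list and dotted lines at 2-fold. The lists of ligands, signaling proteins, other coreceptors and transcription factors have medians between −0.31 and 0.20, as do the receptors at 0.17, and the markers of naive T cells, macrophages and epithelial cells have medians between 1.59 and 1.90.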

How the data were processed

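RNA of sorted TCRαβ+CD8αα+ IELs, 150 ng per array, was labelled with Cy3 and measured on 2 one-color Agilent arrays, 1 per genotype. Per the file headers, the deposited intensity is the scanner software's (Agilent Feature Extraction 10.7.1.1, from the submitters' processing notes) linear, background-subtracted signal. The authors also deposited a normalized table, entered here as a score since 6231 of its 62976 lines are empty, whose column difference is the log2 scanner ratio plus a constant of 1.16. Its column medians are −0.205 (Control) and 0.205 (RFF4), and the study's methods do not give its scale and centering. Its levels were not used.

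From the scanner signal, log2 values were scaled by subtracting the 75th percentile of the gene spots (8.99 for Control and 7.82 for RFF4). Control and outlier spots (102 and 131) were left out, spots of a probe averaged, and the brightest probe of a gene used. A probe with at least 50% of its spots well above background counted as such. Where 1 array was not, the difference is a bound, and the dim side was set to its own signal or to the detection floor (the lowest signal called well above background), whichever was higher. Of 55679 gene probes, 27509 of the 29150 with a RefSeq accession were matched to a symbol of GRCm38.p6. Probes without a match entered the scaling but no count or rank of genes. The technical SD rests on 271 probes of the Control and 244 of the RFF4 array with 9 to 10 spots.

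The receptors, gene lists and promoter motifs were chosen with earlier results of these data known. All receptors, list genes past 2-fold and up to 4 others per list are named, besides *Rbpj*. The neighbors of the receptors and further genes of the lists and markers were named outside that rule after their values were seen. Steps were tested on simulated arrays. Probe sequences were not used here, and the values of some marker genes are not reported here. Tools were limma 3.58.1 in R 4.3.3, and numpy 2.4.6, matplotlib 3.10.9 and pandas 2.3.3 in Python 3.11.15. Alternatives are given in the closing section.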

Additional observations from a re-analysis of the deposited data

How the results depend on the processing

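No paired analysis was possible because each genotype has 1 array, and for the same reason no array could be left out. No receptor difference larger than the technical SD of 0.16 changed sign under an alternative other than the spike-in scaling, except *Havcr2* with normexp. At the dim signals of *Havcr2* and *Btla* the technical SD was larger, 0.25 and 0.29, and the *Havcr2* difference of −0.20 lay within it. Use of the authors' table, keeping outlier spots and dropping genes that were dim on 1 array moved no value beyond the SD of 0.16. They moved no count beyond 1.5 times. The count of receptors more than 2-fold lower, 1, was 0 with quantile normalization, 0 with cyclic loess, 0 with normexp, 0 at 4-fold and 5 under the spike-in scaling. The count higher, 3, was 1 with the spike-ins and 1 at 4-fold. Of all genes, the 683 lower became 1087 with median scaling, 8056 with the spike-ins and 79 at 4-fold, and the 1667 higher became 198 with the spike-ins, 6272 as plain ratios without bounds or filter and 250 at 4-fold. Scaling to the median moved all genes together (by −0.17 at their median) and gave a median of −0.0082 for the receptors, −0.26 for the ligands, −0.48 for the signaling genes, −0.23 for the other coreceptors and 0.024 for the transcription factors. The spike-ins moved that median by −1.09 and gave −0.95, −1.15, −1.43, −1.17 and −0.92 in that order. Normexp gave 0.17 for the ligands and −0.034 for the transcription factors, and the mean of all probes gave 0.14 for the other coreceptors. The cause of these moves beyond the shift itself was not tested. With 1 array for each genotype the spread between mice is unknown, and the values of *Havcr2* and *Btla* are further limited by signals near background.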
